A study of Rattus norvegicus with 40 samples.

Results

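The cerebral cortex of sham rats was compared between the last and the first run of sample numbers, sham 16 to 20 against sham 1 to 5, with 5 arrays per side and 10 of the 40 arrays of the series in all. The arrays were chosen by their labels alone. The series measured total RNA of rat cerebral cortex on Affymetrix 1-colour arrays, 20 from rats given hypoxic preconditioning (a sublethal period of low oxygen) and 20 from sham rats held in normal oxygen. Each group is numbered 1 to 20, read here as 4 runs of 5. All 10 arrays compared share tissue, platform and the sham treatment, and no genetic change, drug or strain is named for them. What separates the runs, a time after treatment, an age or a day of processing, is not given in the sources used here, so run, time, age and handling cannot be told apart. The labels do not say that the samples came from separate animals, so a p-value here refers to the spread among these arrays, some of which could be technical. Values are the deposited probe set intensities, which share a common scale, floored at 16 and turned to log2, and a difference is sham 16 to 20 minus sham 1 to 5 with the standard error of the limma fit (n = 5 per group). A single value in parentheses after a difference or a sum is its adjusted p in limma.

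The cortex of a young rodent changes in a set order after birth. Newborn neurons lose growth cone and migration proteins, dividing progenitors run out, and astrocytes mature and oligodendrocytes wrap axons in myelin. Synapses fill with release machinery, the chloride pump that makes GABA inhibitory appears, and energy supply moves toward mitochondrial respiration. The gene lists used here follow those roles, together with genes that answer to neuronal activity, low oxygen, stress hormones and misfolded protein.

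The RNA carried defining genes of cortical excitatory neurons, with Slc17a7 at 375, 357, 529, 434 and 437 in sham 1 to 5 and with Nrgn and Camk2a above the filter. Array medians spanned 5.74 to 5.82 on the log2 scale in sham 1 to 5 and 5.74 to 5.80 in 16 to 20. By Xist, transcribed in females, and the Y-linked gene Eif2s3y, each group held 3 female and 2 male arrays. Control signals differed between the groups. The 12 probe sets for poly-A control RNA, bacterial transcripts that a laboratory adds to a sample before labelling, had a mean intensity of 102 to 265 in sham 1 to 5 and 116 to 196 in 6 to 10, but 2.35 to 6.80 in 16 to 20 and 2.57 to 3.82 in 11 to 15. The same change fell between numbers 10 and 11 in the preconditioned arrays. The ratio of 3' to 5' signal for hexokinase, a sign of RNA integrity, was 1.48 to 1.56 in sham 1 to 5 and 1.33 to 1.47 in 16 to 20, with no overlap. That of actin was 1.51 to 1.90 against 1.46 to 1.63. The part of these differences in the results was not tested, but the counts and many genes are given beside the sum of the steps between runs alike in spike-in RNA (6 to 10 minus 1 to 5, plus 16 to 20 minus 11 to 15), called the spike-in-matched sum below. That sum has a larger standard error because it draws on all 4 runs, and it was chosen after seeing the data. It equals the difference between the compared groups minus the step from 6 to 10 to 11 to 15, so it reuses the 10 arrays compared. For a gene called between those groups, its direction is therefore largely fixed in advance.

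Of 18625 probe sets tested, 3419 (18.4%) passed an adjusted p of 0.05 in limma, 1602 higher (8.6%) and 1817 lower (9.76%). Of 10304 named genes, 2041 (19.8%) were called, and 1075 (10.4%) were higher and 966 (9.38%) lower, and the groups did not overlap in 1191 (11.6%), 611 (5.93%) higher and 580 (5.63%) lower. The median difference over all named genes was 0.00. With the hexokinase ratio as a covariate 1454 probe sets were called. That ratio did not overlap between the groups compared, so this fit, here and for the lists below, cannot fully separate it from the run. The spike-in-matched sum called 329 probe sets (1.77%), 133 higher and 196 lower. For named genes that is 207 (2.01%), 92 higher (0.893%) and 115 lower (1.12%). Among the 189 genes that the naming rule picked, 159 were called, 153 of them kept their direction in the spike-in-matched sum and 35 passed in it. Kept direction is largely built in, because the sum shares the compared arrays. The sum was positive in 98.1% of probe sets called higher, 1.76% of those called lower and 48.4% of all. On the first principal component of the sham arrays, which held 17.1% of the variance, sham 1 to 5 lay between -20.8 and -4.2 and sham 16 to 20 between 6.5 and 25.4. Sham 16 was the nearest of its group to sham 1 to 5 in 1068 of the 2041 called genes (52.3%), and sham 5 was the nearest of the other group in 705 (34.5%).

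**Figure D1:**
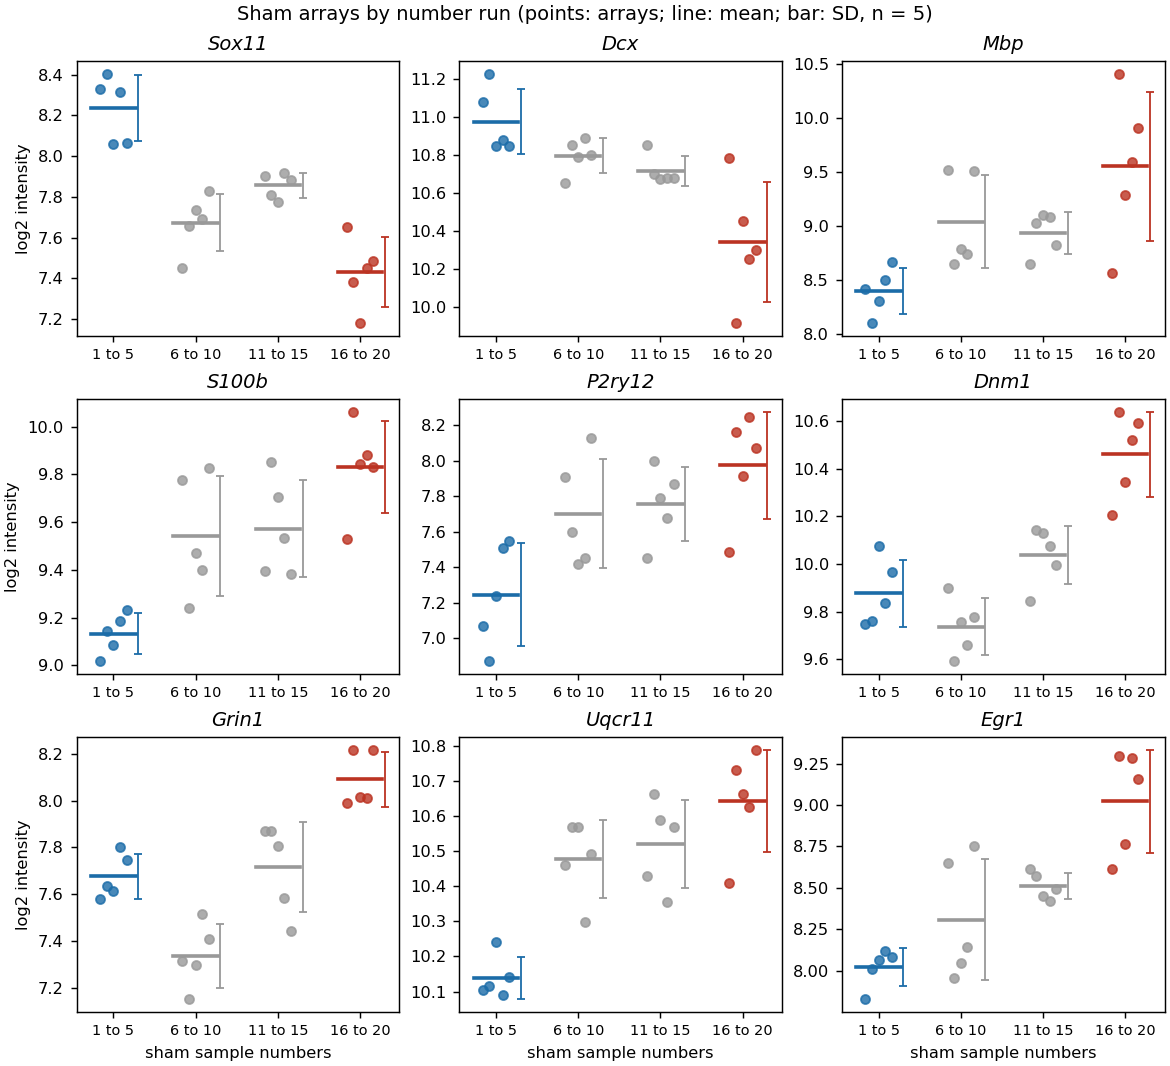
Log2 intensity of 9 genes on the 20 sham arrays, by number run; points are arrays, lines means and bars SD (n = 5). Sham 16 to 20 (red) do not overlap with 1 to 5 (blue) for Sox11, Dcx, S100b, Dnm1, Grin1, Uqcr11 and Egr1, and Grin1 and Dnm1 are lowest in 6 to 10.

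Genes of young, growing neurons were lower in sham 16 to 20. Of the 43 measured genes of immature neurons and growth cones, 14 fell (32.6%) and 1, Epha5, rose (2.33%). Among all named genes 9.38% were lower and 10.4% higher. The list median was -0.12. Sox11, a transcription factor of newly born neurons, measured 322, 339, 267, 318 and 268 in sham 1 to 5 and 201, 167, 145, 175 and 179 in 16 to 20. Every late array lay below every early one, and Sox11 fell by 0.80 ± 0.09 (adjusted p = 1.5e-05), a 1.75-fold lower level. Draxin, a repellent guidance protein for growing axons, measured 339, 359, 287, 246 and 302 and then 218, 145, 196, 173 and 155, again without overlap, and fell by 0.79 ± 0.14 (adjusted p = 0.00057). Dcx, the doublecortin of migrating neurons, measured 2160, 2400, 1840, 1880 and 1840 against 1760, 964, 1400, 1220 and 1260. Its groups stood apart and it fell by 0.63 ± 0.10 (adjusted p = 0.00034), but its spike-in-matched sum of -0.55 had an adjusted p of 0.051. Sham 17 held the lowest value of the late group for Draxin and Dcx, and sham 16 the highest. Dpysl3, a growth cone protein that binds microtubules, fell by 0.52 ± 0.15, and Igf2bp3, an mRNA-binding protein of fetal tissue, by 0.74 ± 0.19. Other well known members were not called. Gap43, a growth cone protein, was 0.10 ± 0.07 (adjusted p = 0.33), Tubb3, the neuronal tubulin, -0.06 ± 0.06 (0.51) and Stmn2 0.15 ± 0.06 (0.08). Without sham 2 the list held 9 lower genes, with the hexokinase covariate 6, and 4 passed in the spike-in-matched sum. In bulk tissue, fewer cells of a type and less RNA per cell cannot be told apart, here or in any later list.

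Genes of dividing cells pointed the same way but with weaker calls. Of 58 measured genes of the cell cycle and DNA replication, 9 fell (15.5%) and 0 rose, with a median of -0.19 and 2 passing in the spike-in-matched sum. Mcm4, a subunit of the helicase that opens replication origins, measured 199, 185, 169, 177 and 183 in sham 1 to 5 and 136, 114, 150, 119 and 134 in 16 to 20. No array of either side crossed, and Mcm4 fell by 0.49 ± 0.09 (adjusted p = 0.001), with a spike-in-matched sum of -0.55 (0.032). Mki67, a marker of cycling cells, measured 149, 119, 130, 120 and 115 and 121, 67.2, 105, 87.8 and 79.4. Sham 16 at 121 overlapped with the early arrays, Mki67 fell by 0.48 ± 0.15 (adjusted p = 0.03), and the call ended without sham 1, 3, 17, 19 or 20. Top2a, which untangles replicated DNA, fell by 0.38 ± 0.13 and Kif20a, a motor of cell division, by 0.53 ± 0.16. The Top2a call ended without sham 1, 2, 3, 17 or 20 and that of Kif20a without 17. The list count was 3 without sham 1 or 17, 4 without 3 or 20, 16 without 16 and 3 with the hexokinase covariate. Of 19 measured radial glia and progenitor genes, Hopx and Id1 were higher (10.5%) and Hes6 was lower (5.26%). Of all named genes 10.4% were higher and 9.38% lower. The Id1 call ended without sham 2, 4, 5, 17 or 19. Sox2 was -0.09 ± 0.08 (adjusted p = 0.44).

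Genes of maturing oligodendrocytes, the cells that make myelin, were higher. Of 24 measured genes of myelin and mature oligodendrocytes 6 rose and 0 fell, with a median of 0.27, and 3 passed in the spike-in-matched sum. Mbp, the protein that compacts the myelin sheath, measured 342, 274, 317, 361 and 406 in sham 1 to 5 and 378, 1360, 623, 770 and 959 in 16 to 20. Sham 17 at 1360 was the highest of all 10, sham 16 at 378 lay within the early range, and Mbp rose by 1.15 ± 0.23 (adjusted p = 0.0014), or 2.22-fold. Pllp, plasmolipin of the myelin membrane, measured 64.3, 76, 67.5, 70 and 79.1 and then 96.1, 121, 100, 104 and 122, without overlap, and rose by 0.60 ± 0.10 (0.00041). Bcas1, found in oligodendrocytes that are starting to myelinate, measured 385, 269, 316, 283 and 352 against 402, 652, 480, 488 and 492. Its lowest late array, sham 16, was above the highest early one, and it rose by 0.64 ± 0.11 (adjusted p = 0.0005). Mag, at the innermost layer of myelin, rose by 0.69 ± 0.17 and Cnp, an enzyme of myelinating cells, by 0.44 ± 0.09. Among the 19 genes of the precursor stage 3 rose (15.8%) and 1 fell (5.26%). That 1 was Vcan, a matrix proteoglycan, which fell by 0.44 ± 0.13, a call that ended without sham 1 or 17. Pdgfra, the growth factor receptor of precursors, was 0.00 ± 0.06 (adjusted p = 0.98). Without sham 16 the myelin list held 10 higher genes.

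Astrocyte genes formed one of the most one-sided lists, with 25 of 38 measured members higher, 0 lower and a median of 0.36, against 10.4% of all named genes called higher. S100b, a calcium-binding protein of astrocytes, measured 518, 566, 543, 582 and 602 in sham 1 to 5 and 738, 1070, 920, 943 and 910 in 16 to 20. All 5 late arrays exceeded all early ones and S100b rose by 0.70 ± 0.11 (adjusted p = 0.00021), or 1.62-fold. Gfap, the intermediate filament of astrocytes, measured 293, 371, 477, 438 and 534 against 499, 839, 713, 935 and 808. Sham 16 at 499 fell below sham 5 at 534, and Gfap rose by 0.84 ± 0.17 (0.0019) with a spike-in-matched sum of 0.85 (0.069). Ntsr2, a neurotensin receptor carried by astrocytes, measured 37.6, 34.3, 45, 70.4 and 57.7 and 66.9, 163, 85.2, 128 and 142. One early array, sham 4, exceeded sham 16, and Ntsr2 rose by 1.23 ± 0.27 (adjusted p = 0.0033). Among the genes that the naming rule picked, this was the largest called rise after that of Gng13. Slc7a10, a transporter of small neutral amino acids, measured 63.3, 68.9, 87.1, 71.8 and 80.3 against 100, 143, 97.2, 111 and 149. Its groups did not overlap and it rose by 0.68 ± 0.12 (0.00061). The water channel Aqp4 rose by 0.48 ± 0.10, the glutamate transporter Slc1a2 by 0.77 ± 0.21 and glutamine synthetase, Glul, by 0.30 ± 0.09, a call that ended without sham 2 or 18. Aldh1l1, the folate enzyme often used to define astrocytes, was 0.23 ± 0.10 (adjusted p = 0.11). The summed intensity of the list was 28758 to 31260 in sham 1 to 5 and 33025 to 41070 in 16 to 20. The list count was 15 with the hexokinase covariate, and 7 members passed in the spike-in-matched sum.

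Microglia and macrophage genes were the list with the highest median, 0.42, and 12 of 29 measured members were higher (41.4%) and 0 lower. Among all named genes 10.4% were higher and 9.38% lower. P2ry12, a purine receptor of resting microglia, measured 134, 117, 151, 182 and 187 in sham 1 to 5 and 179, 286, 241, 304 and 269 in 16 to 20. Sham 16 at 179 overlapped with sham 4 and 5, and P2ry12 rose by 0.73 ± 0.15 (adjusted p = 0.0022). Lyz2, the lysozyme of phagocytes, measured 98, 93.2, 93.9, 108 and 107 against 149, 219, 141, 199 and 187, without overlap, and rose by 0.82 ± 0.15 (0.00064), or 1.77-fold. Aif1, a protein of the microglial cytoskeleton, measured 74, 57, 85.9, 95.4 and 75.1 and 110, 147, 124, 112 and 103. Every late array lay above every early one and it rose by 0.63 ± 0.15 (0.0055). The fractalkine receptor Cx3cr1 rose by 0.69 ± 0.22, the signalling adaptor Tyrobp by 0.68 ± 0.21 and the growth factor receptor Csf1r by 0.47 ± 0.15. The Cx3cr1 call ended without sham 1, 2, 17, 18, 19 or 20, with a difference of 0.44 without sham 2, that of Tyrobp without 1, 3, 17, 18, 19 or 20, and that of Csf1r without 1, 2, 17, 19 or 20. The count was 6 without sham 1, 7 without sham 19 or 20 and 3 with the hexokinase covariate, while 4 members passed in the spike-in-matched sum. The summed intensity of the list was 2334 to 3061 in sham 1 to 5 and 3103 to 3982 in 16 to 20.

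Lists for vessels, blood and tissue beside the cortex are given for comparison. Of 40 endothelial and mural genes 4 were higher (10.0%, near the 10.4% of all named genes) and 0 lower. Their median was 0.09, and Cldn5, a tight junction protein, was at -0.05 ± 0.05 (adjusted p = 0.52). Of 28 choroid plexus and meninges genes 1 was higher (3.57%) and 2 lower (7.14%), with a median of 0.00. Ttr, the choroid plexus carrier of thyroid hormone, measured 5270, 5200, 3360, 4280 and 4300 and 4060, 2810, 6030, 4590 and 6570, and the groups overlapped throughout. Of 5 measured blood cell genes limma called 0, and 1 had an unadjusted p under 0.05, but all 5 differences were below 0, with a median of -0.25. Hbb, the haemoglobin chain, measured 5550, 5130, 5440, 5460 and 4580 against 5310, 3170, 5260, 5260 and 5050, with sham 17 the lowest. Of 24 genes of striatum, hippocampus and thalamus 8 were higher (33.3%) and 3 lower, against 10.4% and 9.38% of all named genes. The 8 became 4 or 5 without sham 1, 3, 18, 19 or 20. They include Rasd2, Rgs9 and Ppp1r1b, genes strong in striatal neurons, which rose by 0.73 ± 0.12, 0.57 ± 0.12 and 0.50 ± 0.09. The summed intensity of that list overlapped between the groups, at 5728 to 6220 and 5520 to 5891, and its part in the neuronal results was not tested.

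**Figure D2:**
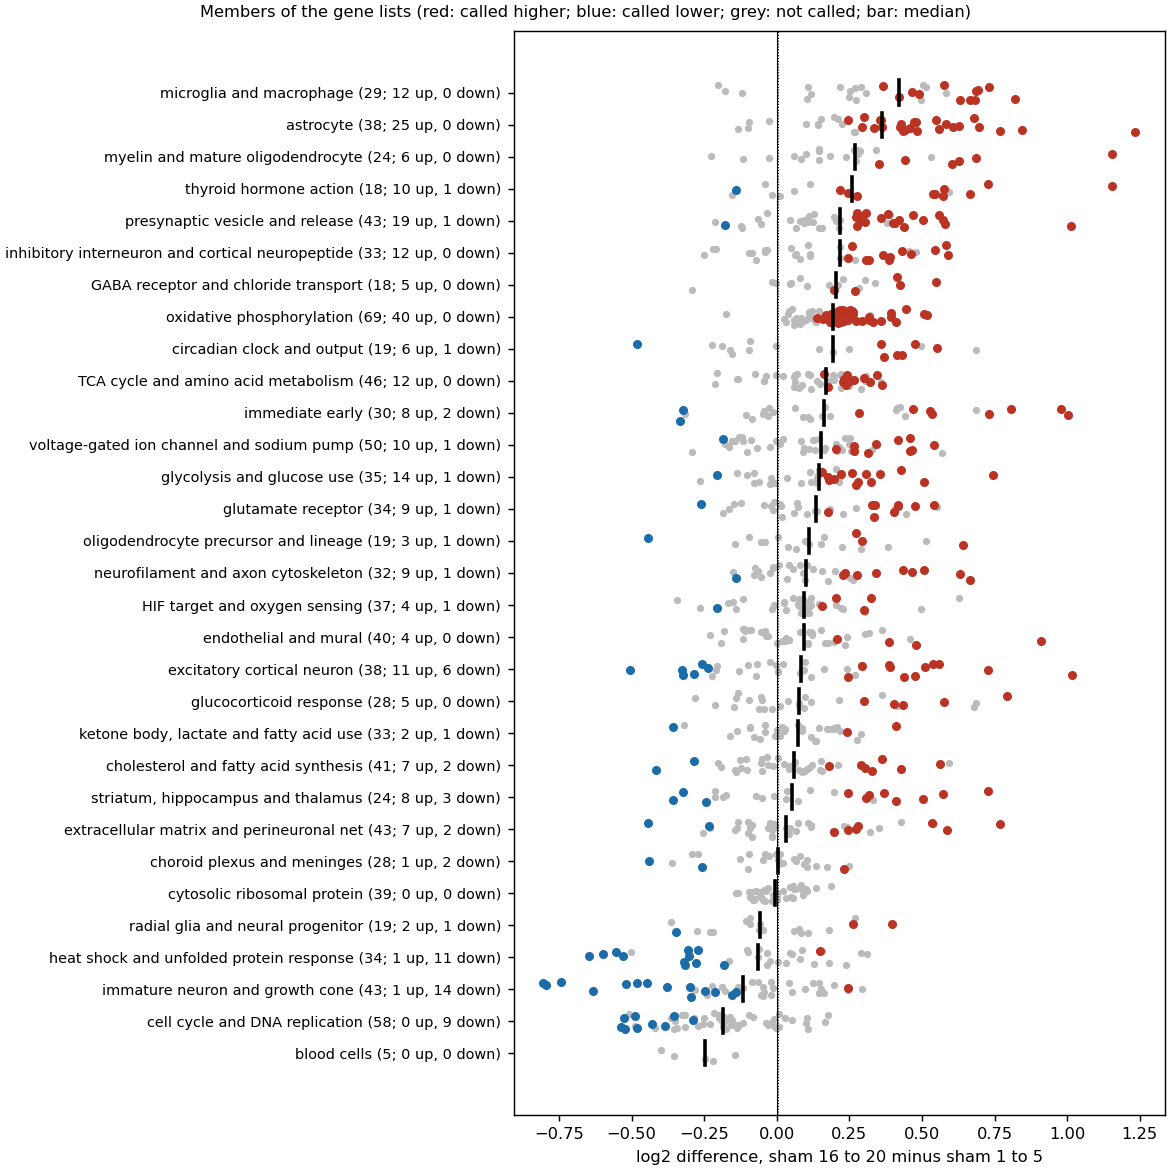
Log2 difference, sham 16 to 20 minus 1 to 5, of every measured member of 31 gene lists; red and blue points are called higher and lower at an adjusted p under 0.05, and black bars are list medians. Microglia, astrocyte and myelin genes lie to the right, immature neuron and cell cycle genes to the left, and the cytosolic ribosomal protein list, with no call among its 39 measured members, lies at 0.

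Genes of transmitter release were higher. Of 43 measured presynaptic genes 19 rose (44.2%) and 1, Syt4, fell (2.33%), against 10.4% higher and 9.38% lower of all named genes. Their median was 0.22, and 3 passed in the spike-in-matched sum. Syt1, the calcium sensor of fast release, measured 720, 765, 866, 832 and 783 in sham 1 to 5 and 1000, 1270, 1060, 1110 and 1050 in 16 to 20. The groups did not overlap and Syt1 rose by 0.47 ± 0.07 (adjusted p = 0.00028). Dnm1, the dynamin that pinches vesicles off the membrane, measured 861, 868, 1080, 913 and 1000 against 1180, 1590, 1300, 1470 and 1540 and rose by 0.58 ± 0.08 (0.00011). Its run means were 9.88, 9.74, 10.04 and 10.46, so the level dipped in 6 to 10 before it rose, and the spike-in-matched sum was 0.28 (0.2). Cplx3, a complexin that clamps the release machinery, measured 51.3, 51.7, 75.9, 73.2 and 101 and 118, 142, 158, 132 and 142. Sham 5 at 101 was the nearest early array and did not reach the late ones, and Cplx3 rose by 1.01 ± 0.18 (adjusted p = 0.00061). Syn2, a synapsin on vesicles, rose by 0.57 ± 0.10 and Syp, a vesicle membrane protein, by 0.41 ± 0.07. With the hexokinase covariate 11 of the list were called higher.

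Both excitatory and interneuron lists held more higher than lower calls. Among 38 genes of excitatory cortical neurons 11 rose (28.9%) and 6 fell (15.8%), with a median of 0.08. Both shares lay above the 10.4% higher and 9.38% lower of all named genes. Among 33 genes of interneurons and cortical peptides 12 rose (36.4%) and 0 fell, with a median of 0.22. Slc17a7, the vesicular glutamate transporter of the cortex, reached 462, 694, 626, 761 and 608 in sham 16 to 20. One early array, sham 3 at 529, exceeded sham 16, and the gene rose by 0.56 ± 0.11 (adjusted p = 0.0018). The excitatory genes that fell included Bhlhe22, Neurod1 and Neurod6, transcription factors of differentiating cortical neurons, and Bcl11b and Foxp2, of deep layer neurons, with differences of -0.51, -0.24, -0.26, -0.29 and -0.33. Their count was 2 without sham 2 and 3 without sham 1, 4 or 17. Camk2a, the calcium-dependent kinase of mature synapses, rose by 1.02 ± 0.32, but the call ended without sham 1, 2, 4, 18, 19 or 20. Vgf, a peptide precursor, measured 257, 270, 335, 292 and 362 and 386, 542, 469, 470 and 412. The late arrays all exceeded the early ones and Vgf rose by 0.59 ± 0.10 (0.00062). The peptide Vip rose by 0.58 ± 0.14 and the GABA-making enzyme Gad2 by 0.43 ± 0.10. Gad1 was 0.12 ± 0.06 (adjusted p = 0.16) and the peptide Npy -0.07 ± 0.08 (0.55).

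Receptor and channel lists also held more higher than lower calls. Of 34 glutamate receptor genes 9 rose (26.5%) and 1 fell (2.94%). For GABA receptors and chloride transport 5 of 18 genes rose (27.8%) and 0 fell. Voltage-gated channel and sodium pump genes numbered 50, of which 10 rose (20.0%) and 1 fell (2.0%). These shares stand against 10.4% higher and 9.38% lower of all named genes. Grin1, the obligatory NMDA receptor subunit, measured 191, 199, 196, 223 and 215 in sham 1 to 5 and 254, 298, 259, 258 and 298 in 16 to 20. The groups did not overlap and Grin1 rose by 0.42 ± 0.09 (adjusted p = 0.0022), yet its run means of 7.68, 7.34, 7.72 and 8.09 gave a spike-in-matched sum of 0.04 (0.9). Of the NMDA subunits that replace each other as synapses mature, Grin2a, the adult one, was 0.41 ± 0.16 (adjusted p = 0.08) and Grin2b, the early one, -0.01 ± 0.10 (0.95), neither past the threshold. Slc12a5, the potassium-chloride exporter KCC2 that keeps chloride low in neurons, measured 934, 839, 1080, 1030 and 853 against 1040, 1390, 1190, 1300 and 1400. Sham 16 at 1040 overlapped with sham 3 at 1080, and Slc12a5 rose by 0.41 ± 0.08 (adjusted p = 0.0015), with a spike-in-matched sum of 0.40 (0.066). Slc12a2, the chloride importer NKCC1, was 0.08 ± 0.07 (0.49). The potassium channel partner Kcnip4 rose by 0.46 ± 0.07. The GABA list fell to 3 higher genes without sham 1, 2, 17, 18 or 20, and the channel list to 5 without sham 17 or rose to 16 without sham 16.

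Bcan, brevican, a proteoglycan of perineuronal nets, measured 453, 469, 542, 525 and 542 in sham 1 to 5 and 610, 766, 729, 790 and 779 in 16 to 20. No late array reached down to the early ones, and Bcan rose by 0.54 ± 0.07 (adjusted p = 7.4e-05), with a spike-in-matched sum of 0.44 (0.026). Hapln1, which links such proteoglycans to hyaluronan, measured 62.3, 70.8, 92.8, 84.6 and 66 and 102, 142, 114, 129 and 153 and rose by 0.77 ± 0.15 (0.0013). In all 7 of 43 matrix genes rose (16.3%) and 2 fell (4.65%), against 10.4% and 9.38% of all named genes, with a median of 0.03, and the 7 became 3 or 4 without sham 1, 2, 17 or 19. Of 32 axon cytoskeleton genes 9 rose (28.1%) and 1 fell (3.12%). Tuba4a, an alpha tubulin, measured 736, 776, 1050, 1010 and 980 against 1270, 1540, 1270, 1410 and 1520, without overlap, and rose by 0.63 ± 0.10 (adjusted p = 0.00024). The heavy neurofilament Nefh rose by 0.67 ± 0.17 and the light one, Nefl, by 0.46 ± 0.12. Among 18 genes that thyroid hormone governs in the developing brain 10 rose (55.6%) and 1 fell (5.56%), with a median of 0.26. Klf9, a transcription factor induced by thyroid hormone and glucocorticoid, rose by 0.58 ± 0.12, and its spike-in-matched sum was 0.75 (0.023). This list shares Mbp, Nefh, Nefm, Nrgn and other members with the lists above.

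Mitochondrial respiration genes moved by small amounts but nearly all in 1 direction. Of 69 measured subunits of oxidative phosphorylation 40 rose (58.0%) and 0 fell, against 10.4% higher and 9.38% lower of all named genes. Their median was 0.19. The late arrays all lay above the early ones in 25, against 5.93% of all named genes. Uqcr11, a small subunit of complex III, measured 1100, 1110, 1210, 1090 and 1130 in sham 1 to 5 and 1360, 1700, 1620, 1580 and 1770 in 16 to 20. The groups did not overlap and Uqcr11 rose by 0.51 ± 0.07 (adjusted p = 7.8e-05), or 1.42-fold. Ndufab1, the acyl carrier protein of complex I, measured 986, 1090, 1070, 976 and 1020 against 1220, 1480, 1630, 1450 and 1610 and rose by 0.52 ± 0.07 (0.0001), also without overlap. With the hexokinase covariate 13 of the list were higher and 4 passed in the spike-in-matched sum. In the preconditioned arrays of the same numbers the list median was 0.06 with 5 members called higher. The difference between the changes, preconditioned minus sham, was called for 0 members and for 0.592% of all named genes. It was positive in 7 of the 69 members, with a median of -0.14, against 5452 of 10304 named genes. The list as a whole was not tested. Of 46 genes of the tricarboxylic acid cycle and amino acid metabolism 12 rose (26.1%) and 0 fell. They were led by Glud1, glutamate dehydrogenase, at 0.36 ± 0.06 and Idh3a at 0.34 ± 0.08. In the spike-in-matched sum 0 members of that list passed, with Glud1 at 0.28 (0.059) and Idh3a at 0.01 (0.96). Of 35 genes of glycolysis and glucose use 14 rose and 1, Taldo1, fell, with 7 without sham 1, 9 without sham 18 and 5 with the hexokinase covariate. Ldhb, the lactate dehydrogenase subunit that favours lactate use, measured 1610, 1790, 1970, 1830 and 1810 and 2070, 2260, 2440, 2340 and 2410. The late arrays all lay higher and Ldhb rose by 0.36 ± 0.06 (0.0005), whereas Ldha was 0.14 ± 0.06 (0.086). Pdk2, a kinase that restrains pyruvate dehydrogenase, measured 70.1, 71.8, 74.5, 75.2 and 97.3 against 107, 119, 111, 104 and 107 and rose by 0.51 ± 0.10 (0.0019). Its run means of 6.27, 6.06, 6.41 and 6.78 dipped in 6 to 10, and its spike-in-matched sum was 0.16 (0.61).

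Fuel genes of the suckling brain and the protein-making machinery shifted less. Of 33 genes of ketone body, lactate and fatty acid use 2 rose (6.06%) and 1 fell (3.03%), against 10.4% higher and 9.38% lower of all named genes. Bdh1 and Oxct1, which burn ketone bodies, were 0.03 ± 0.10 (adjusted p = 0.87) and 0.13 ± 0.06 (0.093). Acat2, a cytosolic thiolase, fell by 0.36 ± 0.09 (0.0055). Of 41 genes of cholesterol and fatty acid synthesis 7 rose (17.1%) and 2 fell (4.88%), and the 7 became 4 without sham 4 or 17. Cyp46a1, which turns brain cholesterol into its exported form, rose by 0.56 ± 0.17, a call that ended without sham 1, 4 or 17. Among the 39 cytosolic ribosomal protein genes 0 were called in limma, 3 had an unadjusted p under 0.05, and the groups did not overlap in 1.

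Several activity genes rose in the sham arrays. Of 30 immediate early genes, which neurons switch on within minutes of firing, 8 rose (26.7%) and 2 fell (6.67%), with a median of 0.16. Among all named genes 10.4% were higher and 9.38% lower. Egr1 measured 227, 258, 268, 278 and 271 in sham 1 to 5 and 392, 628, 435, 623 and 570 in 16 to 20. The groups did not overlap, and Egr1 rose by 1.00 ± 0.14 (adjusted p = 8.0e-05), or 2.00-fold, with a spike-in-matched sum of 0.80 (0.034). Fos, whose protein pairs with Jun in AP-1, measured 36.6, 37.1, 24.5, 33.3 and 31.8 against 55.7, 79.5, 86.5, 55.2 and 49.4. These are low intensities, but no late array reached down to the early ones and Fos rose by 0.98 ± 0.22 (0.0035). Nr4a1, a nuclear receptor, rose by 0.73 ± 0.15 and Egr4 by 0.81 ± 0.19, while Nr4a2 and Nr4a3 fell by 0.32 and 0.33. The 8 became 5 without sham 4, 17 or 19 and 2 with the hexokinase covariate. Of 28 genes that answer to glucocorticoids 5 rose (17.9%) and 0 fell, and the 5 became 2 without sham 2. Fkbp5, a sensitive reporter of the receptor, was -0.05 ± 0.11 (adjusted p = 0.79). Fam107a, in that list, rose by 0.79 ± 0.13 (0.00038). Of 19 clock genes 6 rose (31.6%) and 1 fell (5.26%), and the 6 became 3 without sham 1, 17 or 20. Dbp, a clock output factor, rose by 0.55 ± 0.12 and its opponent Nfil3 fell by 0.48 ± 0.13. Per1 was 0.69 ± 0.42 (0.27).

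Of 37 targets and sensors of the hypoxia-inducible factor 4 rose (10.8%) and 1 fell (2.7%) in sham arrays, with a median of 0.09. The share that rose is near the 10.4% of all named genes. Vegfa, the vessel growth factor, measured 201, 211, 175, 230 and 185 in sham 1 to 5 and 204, 241, 232, 224 and 187 in 16 to 20, with overlapping groups and a difference of 0.12 ± 0.09 (adjusted p = 0.37). Slc2a1, the glucose transporter GLUT1, measured 189, 199, 217, 198 and 237 against 186, 221, 232, 249 and 243, with a difference of 0.12 ± 0.08 (0.34). In the preconditioned arrays 16 to 20 the same genes were lower than in 1 to 5, Vegfa at -1.18 ± 0.08 and Slc2a1 at -1.29 ± 0.08 (adjusted p = 1.1e-09 and 9.9e-11).

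Chaperones of the endoplasmic reticulum, the compartment where secreted proteins fold, were lower. Of 34 genes of the heat shock and unfolded protein responses 11 fell (32.4%) and 1, Atf4, rose (2.94%), against 9.38% lower and 10.4% higher of all named genes. In all, 10 of the 11 belong to the reticulum arm, with Hsf2 the other. Hspa5, the Hsp70 of the reticulum also known as BiP, measured 2360, 3220, 2130, 2480 and 1990 in sham 1 to 5 and 1630, 1530, 1620, 1510 and 1630 in 16 to 20. Sham 2 was the highest at 3220, every late array lay below every early one, and Hspa5 fell by 0.60 ± 0.10 (adjusted p = 0.00035), or 1.51-fold. Pdia4, a disulphide isomerase, measured 418, 430, 292, 315 and 287 against 226, 198, 227, 221 and 223 and fell by 0.65 ± 0.10 (0.00024). Sdf2l1, a partner of Hspa5, measured 157, 179, 115, 149 and 132 and 97.2, 99.8, 108, 101 and 96.3. Its groups stood apart and it fell by 0.53 ± 0.10 (0.0011). Creld2, secreted by stressed cells, measured 226, 326, 183, 285 and 192 and 152, 152, 205, 147 and 156. Sham 18 at 205 overlapped with sham 3 and 5, and it fell by 0.55 ± 0.14 (0.0093), a call that ended with the hexokinase covariate.

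The drop of these chaperones lay between the runs where the poly-A control RNA disappears, and its part in the drop cannot be told apart from that of the run. Run means of Hspa5 were 11.23, 11.63, 10.62 and 10.63, those of Sdf2l1 7.18, 7.90, 6.69 and 6.65 and those of Creld2 7.88, 8.44, 7.18 and 7.33. Between 6 to 10 and 11 to 15, where 42 of 10304 named genes (0.408%) were called, 23 higher (0.223%) and 19 lower (0.184%), Hspa5 changed by -1.01 ± 0.10, Sdf2l1 by -1.21 ± 0.10, Creld2 by -1.25 ± 0.14 and Pdia4 by -0.69 ± 0.10 (adjusted p = 3.0e-06, 3.1e-07, 2.6e-05 and 0.0013). In that step 7 list members were lower and 0 higher. Between runs alike in spike-in RNA the direction turned, and the spike-in-matched sum was 0.41 ± 0.14 for Hspa5 (0.12), 0.70 ± 0.20 for Creld2 (0.068) and 0.68 ± 0.14 for Sdf2l1, the last past the threshold (adjusted p = 0.02). Preconditioned arrays had the same shape, with Hspa5 means of 11.24, 11.57, 10.62 and 10.75. Cytosolic and mitochondrial chaperones were not called between sham 16 to 20 and 1 to 5. Hspa4, a cytosolic Hsp70 relative, was 0.09 ± 0.10 (adjusted p = 0.58), Hsph1 -0.03 ± 0.05 (0.67) and Hspd1, of mitochondria, 0.05 ± 0.04 (0.37).

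**Figure D3:**
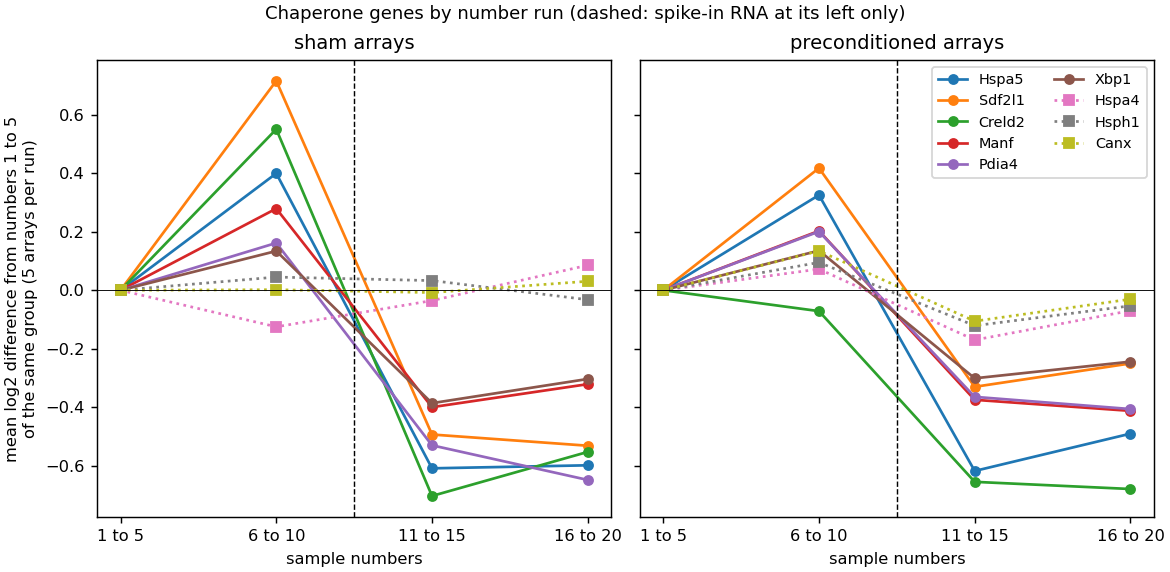
Mean log2 difference from numbers 1 to 5 of 6 reticulum chaperone genes (solid lines) and of Hspa4, Hsph1 and Canx (dotted lines), by number run in the sham and preconditioned arrays; the dashed line marks where the spike-in RNA disappears. The solid lines drop between numbers 6 to 10 and 11 to 15 in both panels, and the dotted lines stay nearer 0, with a smaller drop in the preconditioned panel.

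Some reticulum chaperone promoters carry a known element, which is shown because these genes moved together. The ER stress response element, chosen with these values known, was searched as CCAAT, then 9 bases of any kind, then CCACG, on both strands, in RefSeq promoters of assembly GRCr8, from 250 bases before to 50 bases after each gene's start. It occurred in 22 of 33469 promoters (0.0657%), in 15 of 8636 promoters of measured named genes (0.174%) and in 6 of the 29 list members with a promoter in that table. Of these 6, 4 fell, Hspa5, Creld2, Hsp90b1 and Xbp1, and Calr at -0.10 ± 0.07 (adjusted p = 0.36) and Canx at 0.03 ± 0.05 (0.73) did not pass. Windows of 29 bases follow for 4 of these 6 genes, with the element's ends in capitals. Those of Hsp90b1, which fell, and Canx, which did not pass, are not printed.
Hspa5 (chr3:38452968-38452996, plus strand): gttcaCCAATcggaggcctCCACGacggg
Creld2 (chr7:121789234-121789262, minus strand): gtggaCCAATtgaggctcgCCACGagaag
Xbp1 (chr14:84604553-84604581, plus strand): acaggCCAATcgcagacggCCACGaccct
Calr (chr19:40213130-40213158, minus strand): ctgggCCAATcagggtcgaCCACGcgttg
The 4 windows share their 10 capital letters by construction and differ in the 9 bases between. A match in these letters is a description of the promoter and not evidence that a factor acted there.

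The largest single changes included genes outside any list. Gng13, a G protein gamma subunit, measured 39.9, 47.6, 41.6, 43.7 and 67.4 in sham 1 to 5 and 72.9, 142, 110, 101 and 178 in 16 to 20. The groups did not overlap and Gng13 rose by 1.29 ± 0.23 (adjusted p = 0.00061), or 2.45-fold. Lgi4, a secreted protein that glia need to myelinate peripheral nerve, measured 21.7, 23.9, 41.9, 26.4 and 39.7 against 43.8, 66.5, 61.2, 67.8 and 70.4, without overlap, and rose by 1.05 ± 0.20 (0.001). Nqo2, a quinone reductase, rose by 1.11 ± 0.18 (0.0004) and Il34, a ligand of the microglial receptor Csf1r, by 0.91 ± 0.15 (0.00043). The largest called fall among genes without overlap was that of Zfp950l1, a zinc finger gene. It measured 218, 230, 145, 210 and 164 and then 115, 67.1, 85, 86.7 and 61.4. The groups stood apart, and it fell by 1.23 ± 0.18 (adjusted p = 0.00012), or 2.35-fold. Creb1, the cAMP-responsive transcription factor, measured 198, 184, 148, 189 and 250 against 100, 105, 117, 117 and 98.7 and fell by 0.83 ± 0.12 (0.00012), with a spike-in-matched sum of -0.52 (0.1). Zbtb12, another zinc finger gene, fell by 1.16 ± 0.21, and Mtfr1, a regulator of mitochondrial fission, by 0.93 ± 0.15. Of the calls named in this paragraph, those of Gng13, Lgi4, Nqo2, Zfp950l1, Zbtb12 and Mtfr1 also passed in the spike-in-matched sum, and those of Il34 and Creb1 did not.

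The runs between the compared ones gave arrays that share no sample with them. Between 11 to 15 and 6 to 10, across the spike-in change, 67 probe sets were called (0.36%; 18 without sham 13), and the difference was positive in 1158 of the 1602 probe sets called higher in the main comparison (72.3%), in 618 of the 1817 called lower (34.0%) and in 49.6% of all. From run to run the mean rose at every step in 752 of the 1602 (46.9%) and fell at every step in 759 of the 1817 (41.8%), against 8.08% and 8.66% of all probe sets. The order of run means is partly fixed by the main comparison, so these shares are a description. The astrocyte median relative to sham 1 to 5 was 0.15, 0.18 and 0.36 in the 3 later runs. That of microglia was 0.26, 0.17 and 0.42, that of presynaptic genes 0.01, 0.07 and 0.22, and that of oxidative phosphorylation 0.13, 0.14 and 0.19. The medians of the lower lists did not fall steadily. That of immature neuron genes was -0.15, -0.07 and -0.12, and that of cell cycle genes -0.12, -0.04 and -0.19. Between 6 to 10 and 1 to 5, 2 of the 69 respiration genes were called, both higher. Of 10304 named genes 252 (2.45%) were called in that step, 103 higher and 149 lower. The difference was positive in 66 of the 69 respiration genes and in 5013 of all named genes.

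**Figure D4:**
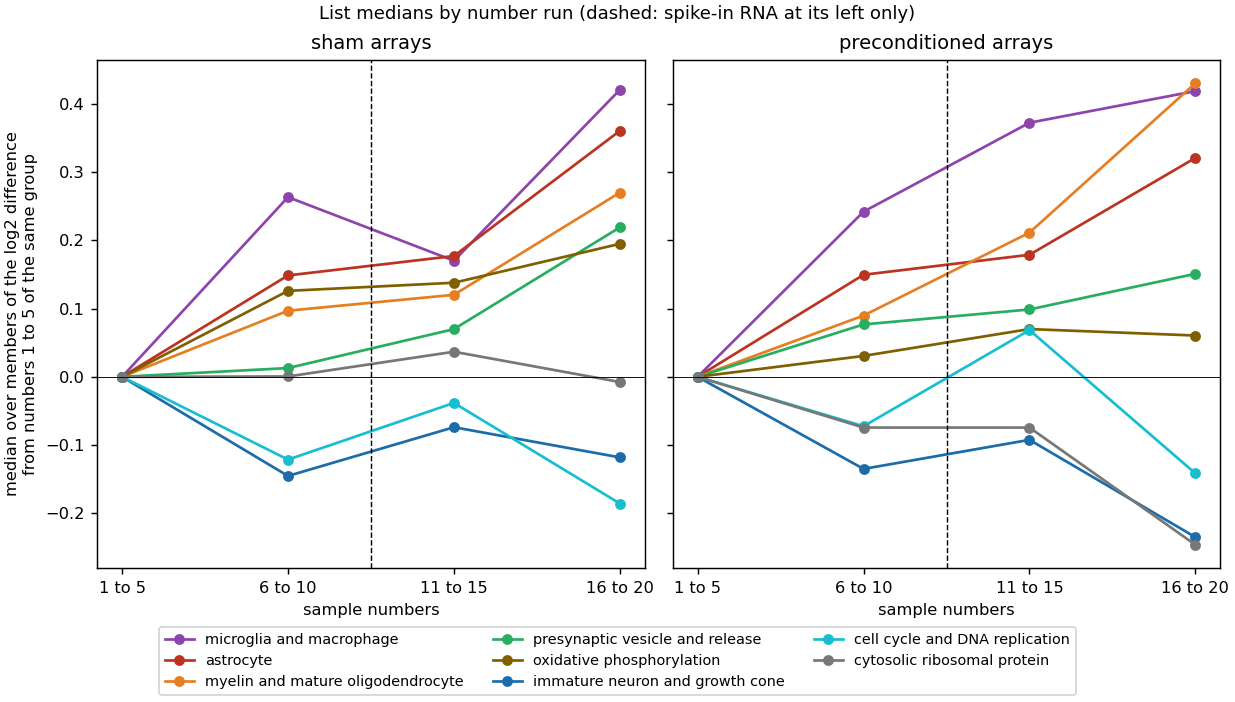
Median over list members of the log2 difference from numbers 1 to 5 of the same group, by number run, in sham (left) and preconditioned (right) arrays, 5 arrays per run; the dashed line marks where the spike-in RNA disappears. Astrocyte, microglia and myelin medians rise to between 0.27 and 0.43 in both panels, and the oxidative phosphorylation median ends at 0.19 in sham and 0.06 in preconditioned arrays.

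Preconditioned arrays of the same numbers, which share no array with the sham ones, gave the same sign for most probe sets called in sham arrays. Preconditioned 16 to 20 against 1 to 5 called 2407 probe sets (12.9%; 1591 without preconditioned 17), or 1369 named genes (13.3%), 755 higher (7.33%) and 614 lower (5.96%), and the difference was positive in 1454 of the 1602 called higher in sham arrays (90.8%), in 207 of the 1817 called lower (11.4%) and in 52.4% of all. Same-numbered arrays of both treatments may share a source of variation, since their residuals correlated within runs. Mbp rose by 1.64 there, S100b by 0.85, Lyz2 by 1.22 and Bcas1 by 0.63. Sox11 changed by -0.68, Draxin by -0.88 and Zfp950l1 by -0.87, all past the threshold. The astrocyte median was 0.32 with 15 members higher, and the microglia median 0.42 with 12 higher. The glucocorticoid list, with 5 members higher and 0 lower in sham arrays, had 3 higher, 11 lower and a median of -0.25 there.

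A test of the difference itself, preconditioned minus sham, called 79 probe sets (0.424%), 24 higher (0.129%) and 55 lower (0.295%), or 61 named genes (0.592%), 18 higher (0.175%) and 43 lower (0.417%). Fos, which rose in sham, differed by -2.35 ± 0.37 (adjusted p = 0.00017), and it changed by -1.37 in the preconditioned arrays. Egr1 differed by -1.26 ± 0.22 (0.0013), with -0.26 there (0.3). Of the oxygen-sensing list 13 members differed, all lower, among them Slc2a1 at -1.40 ± 0.11 (2.4e-11), Vegfa at -1.30 ± 0.12 (6.1e-10), the VEGF receptor Flt1 at -1.43 ± 0.33 (0.03) and Ldha at -0.53 ± 0.13 (0.045). None of these 4 was called in the sham arrays, and the preconditioned arrays start high in 1 to 5, with a geometric mean of 571 for Slc2a1 against 234 in 16 to 20. Of the glucocorticoid list 6 members differed and of the immediate early list 5, all lower. In the immature neuron, astrocyte, microglia, myelin, presynaptic and respiration lists 0 members differed, which does not show that their changes were equal.

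**Figure D5:**
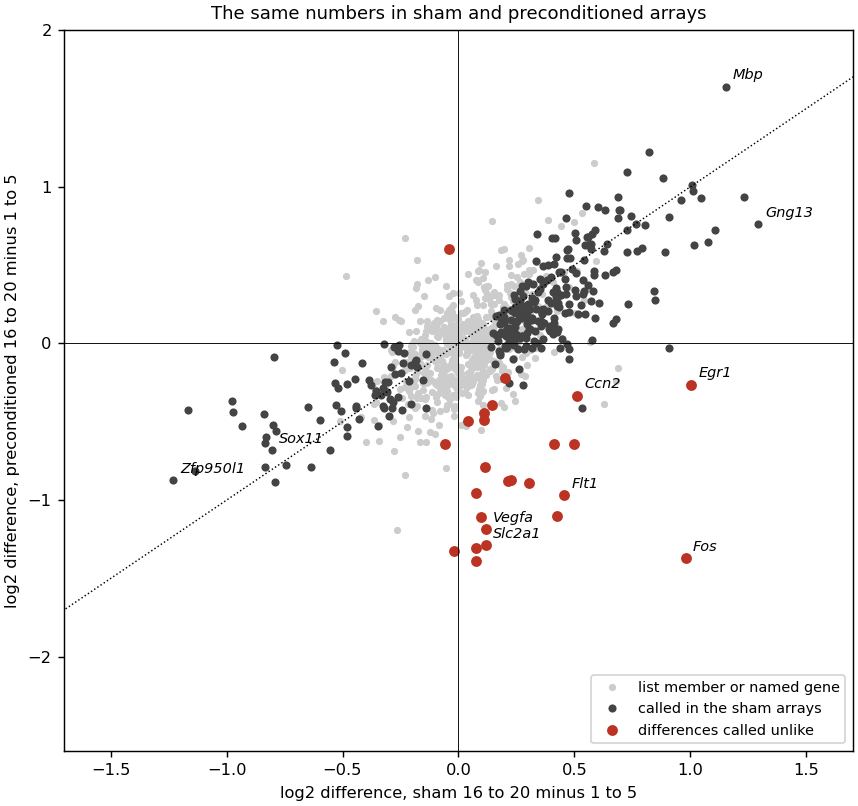
Log2 difference of numbers 16 to 20 minus 1 to 5 in preconditioned arrays against that in sham arrays, for every list member and named gene; dark points are called in the sham arrays, red points have a called difference between the treatments, and the dotted line marks equal change. Mbp at 1.15 and 1.64 and Zfp950l1 at -1.23 and -0.87 lie near the line, while Fos at 0.98 and -1.37 lies far below it.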

How the data were processed

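The deposited values are linear intensity values, with 1 entry for each probe set on each array. Which software produced them is not given in the sources used here. A mean without the lowest and highest 2% of probe sets was 150.04 to 150.06 on all 40 arrays, so the deposited arrays share a common scale, and the step that set it is not recorded. The number of arrays limits the precision. Of 31099 probe sets 57 controls were left out. Intensities under 16 were set to 16 and log2 was taken of the deposited values, and probe sets whose mean over 40 arrays reached the 40th percentile (intensity 31.9) were kept, 18625 in all. Platform annotation gave 20826 of 31042 probe sets 1 gene symbol, 436 several and 9780 none (14273 with 1 symbol were kept), and probe sets with several symbols named no gene. Each gene was represented by its kept probe set with the highest mean, giving 10304 genes. No detection calls were used.

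Sham 16 to 20 were compared with 1 to 5 by limma 3.58.1 in R 4.3.3 (lmFit, eBayes with trend) fitted to all 20 sham arrays as 4 run means, two-sided, with Benjamini-Hochberg adjustment at 0.05. Preconditioned arrays were fitted alike, and the difference of differences over all 40. Genes named are the 15 largest called rises and falls without overlap, up to 5 called members of each list, and a set of fixed genes. Further list members, such as Tubb3, Stmn2, Hspa4 and Hspd1, were named after their values were seen. The lists, which overlap, and the comparison were chosen with earlier results of these data known. In simulated data with 200 of 18625 probe sets changed, the fit recovered 69% of changes of 0.5 and 95% of 1. Alternatives varied normalization, floor, filter, model, covariates and the arrays used.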

Additional observations from a re-analysis of the deposited data

Results flagged for a closer look

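Values of 43 genes were checked in both groups for an array that stands apart by Dixon's ratio, and 4 of the 86 groups had one. Chance gives about 1 in 20 such groups. They were Pdk2 on sham 5 at 97.3, the highest of 1 to 5, Pdia4 on sham 17 at 198 and Hbb on sham 17 at 3170, both the lowest of 16 to 20, and Creld2 on sham 18 at 205, the highest of 16 to 20.

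For 8 named genes the change between numbers 1 to 5 and 16 to 20 differed between preconditioned and sham arrays in limma (preconditioned minus sham, log2, adjusted p under 0.05). The difference was -2.35 for Fos, -1.26 for Egr1, -0.84 for Ccn2, -0.42 for Higd1a, -1.43 for Flt1, -1.40 for Slc2a1, -0.53 for Ldha and -1.30 for Vegfa. Fos, Egr1, Ccn2 and Higd1a rose in the sham arrays, and the other 4 were not called there.

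The 12 poly-A control probe sets, which enter no comparison, had a mean intensity of at least 102 on every array of sham 1 to 5 and at most 6.80 on those of 16 to 20. The other arrays of the series fall on the same sides by their number, 1 to 10 against 11 to 20.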

How the results depend on the processing

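The count of 3419 called probe sets ranged from 2451 (without sham 1) to 3877 (without sham 16) when 1 array was left out. It was 1454 (688 higher, 766 lower) with the hexokinase 3' to 5' ratio as a covariate and 329 (133 and 196) for the spike-in-matched sum, both added after seeing the data. Median centring gave 1684 higher and 1482 lower, 53.2% higher against 46.9%. In the spike-in-matched sum these called genes turned direction: Cspg5 at -0.041, Pdia4 at 0.043, Hspa5 at 0.41, Creld2 at 0.70, Sdf2l1 at 0.68, Manf at 0.36 and, outside the naming rule, Xbp1 at 0.22; the cause was not tested. No other called gene that the rule names reversed under an alternative run. Called genes named outside the rule were set only against that sum. The 67 probe sets called between 11 to 15 and 6 to 10 became 18 to 64 without 1 array, with a fall of over 1.5 times without 6, 8, 10, 11, 12, 13, 14 or 15, the preconditioned comparison 1591 to 2374 (1591 without preconditioned 17) and the difference of differences 57 to 81. The sample numbers do not pair samples of the groups compared. As a replicate block over all 40 arrays, the number gave 2789 calls, against 2760 without the block. Residuals of same-numbered arrays of both treatments correlated at 0.031 to 0.393 (median 0.159), and 19 of 20 correlated best with their own number within the run. Low intensities such as those of Fos and Lgi4 limit the precision of single genes.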

Other observations

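Some nuclear regulator families were grouped by the start of their symbols after the values were seen, and 9.38% of all named genes were called lower and 10.4% higher. Of 231 measured zinc finger genes (symbols that begin with Zfp, Znf, Zbtb, Zscan or Zkscan) 56 were lower (24.2%) and 3 higher, with a median of -0.13, and 8 were lower in the spike-in-matched sum. Of 61 splicing and RNA-binding genes (Srsf, Hnrnp and Rbm) 27 were lower (44.3%) and 3 higher, with a median of -0.17. Of 35 histone methyltransferase, demethylase and acetyltransferase genes 11 were lower (31.4%) and 1 higher. The medians of these 3 families in preconditioned arrays were -0.07, -0.11 and -0.22.

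Of 13 calmodulin-dependent kinase genes 6 were higher (46.2%) and 0 lower, with a median of 0.24. Of 22 G protein subunit genes 9 were higher (40.9%) and 1 lower (4.55%). The vacuolar proton pump acidifies synaptic vesicles, and 5 of its 16 genes were higher (31.2%) and 0 lower. Of 73 mitochondrial ribosomal protein genes 5 were higher (6.85%) and 1 lower (1.37%), and of 36 proteasome subunit genes 2 were higher (5.56%) and 1 lower (2.78%). These families were picked from the symbols of the genes measured here and carry no test of their own.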
